A study of Mus musculus with 28 samples.

Results

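The comparison described here set the 2 samples of lung pNSCs against the 2 samples of lung cells, 4 of the 28 RNA-seq samples in the series, and asked which gene programmes differed between the cultured stem cell lines and cells of their tissue of origin. The samples were chosen by their labels, Lung-pNSC and Lung. In the study's design, lung pNSCs are peripheral neural stem cells (pNSCs), that is, neural stem cells (NSCs) obtained outside the central nervous system. They were grown from adult lung of Nes-GFP mice, in which regulatory elements of the Nestin gene drive green fluorescent protein (GFP). GFP+ cells were sorted and kept in serum-free NSC medium with EGF at 10 ng/ml and bFGF at 10 ng/ml for 3 weeks, and a single cluster was then picked and passaged, so that a line is usually 1 clone. The labels put adult lung donors at around 4 to 6 weeks of age. They give neither the age of the mice behind these lung cells, nor their genotype, nor any time in culture, and the same lung samples also served another experiment of the study that was not analysed here. The labels name the strain C57BL/6, whereas the study's methods describe CD1 or mixed CD1 and C3H stock for wild-type mice and for breeding of the transgenic mice. The Nes-GFP origin of the samples labelled Lung-pNSC comes from the study's design and is not in the labels. Nothing in the labels says that the 2 samples of a group came from separate animals or lines. The p-values below therefore measure only the spread between samples of a group, estimated over 5 groups of the experiment.

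Neural stem cells are dividing cells that can give rise to neurons, astrocytes and oligodendrocytes. They are held in this state in culture by EGF and FGF, and by transcription factors of the Sox and basic helix-loop-helix families. The lung is a mixture of many cell types: alveolar type 1 cells form the gas exchange surface, alveolar type 2 cells secrete surfactant, secretory and ciliated cells line the airways, and endothelium, fibroblasts, smooth muscle and resident leukocytes make up the rest. Because the lung cells are such a mixture and the pNSCs are one cultured cell type, a difference in these bulk samples cannot tell fewer cells of a type from less RNA per cell. Words such as rose, fell or change refer to the difference between the samples, not to a step that the lines passed through.

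The lung pNSC libraries held 21402778 and 18009594 counts and the lung cell libraries 19364328 and 16700710. Levels are given in cpm, that is, counts per library size after TMM scaling. The limit of detection was set at 3 counts per library, equal to 0.134 to 0.181 cpm in these 4 libraries. Replicates were close to each other: their squared differences were 1.60 times the counting error in lung pNSCs and 1.83 times in lung cells, which is more than counting alone gives. Of 28244 genes in the file, 16948 were tested with edgeR's quasi-likelihood test, two-sided, in a fit over the 5 groups of the experiment (lung pNSCs, lung cells, brain NSCs, tail pNSCs and tail cells, n = 2 each). A call needed both a Benjamini-Hochberg adjusted p below 0.05 and a change of 1 or more, up or down, on the log2 scale.

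Lung pNSCs and lung cells differed over most of the transcriptome. Of the tested genes 9327 were called, which is 55.0%. More were lower in lung pNSCs (5911 genes, 34.9%) than higher (3416 genes, 20.2%). These shares are the background against which the counts of each gene list below are read. The differences in the lower direction were also the larger ones. A log2 fold change of -8 or less was fitted for 1492 called genes, and one of 8 or more for 164. Under quantile normalization, the scaling the study used for its heatmaps, this imbalance was not seen. Genes at least 4-fold apart with no overlap between the groups numbered 1673 higher and 4546 lower on the TMM scale. After quantile normalization they numbered 3420 higher and 3210 lower. That scaling gives every library the same distribution of values, so these counts cannot decide whether the imbalance holds. The median log2 fold change of all tested genes was -0.15.

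The asymmetry was also visible in what each group expressed at all. At a mean of at least 1 cpm, 14592 genes were present in lung cells, 12074 in lung pNSCs and 11377 in both. There were 1969 genes at 1 cpm or more in lung cells with at most 3 counts in each lung pNSC library, and 270 genes with the opposite pattern. Of those 1969 genes, 1716 also had at most 3 counts in each tail pNSC library and 1694 in each brain NSC library. Genes called higher took 42.0% of all counts in each lung pNSC library and 9.76% and 9.78% in the lung cell libraries. Genes called lower took 5.75% and 5.78% of the counts in lung pNSCs and 46.2% and 46.0% in lung cells.

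**Figure D1:**
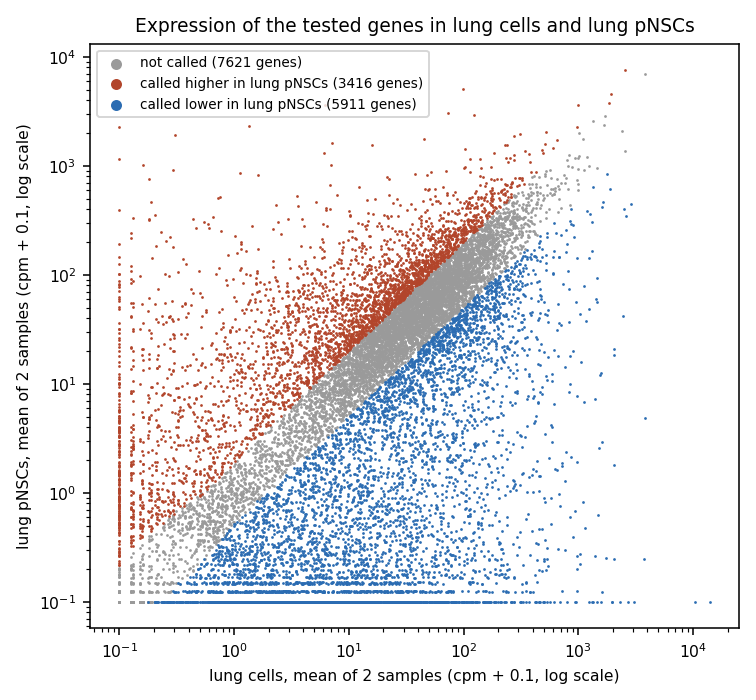
Mean level of each tested gene in lung cells (horizontal axis) and lung pNSCs (vertical axis), both in cpm with 0.1 added on log scales, 1 point per gene and 2 samples per mean. The 5911 genes called lower in lung pNSCs (blue) reach down to the bottom edge, where lung pNSCs had no counts, and outnumber the 3416 called higher (red).

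The labels were checked against defining genes of each cell type. Lung cells carried the markers of a whole lung. The levels in the 2 samples were 10313 and 10324 cpm for Sftpc (surfactant protein C, alveolar type 2), 14146 and 13803 cpm for Scgb1a1 (club cell secretoglobin), 2038 and 2035 cpm for Ager (alveolar type 1), 1471 and 1452 cpm for Cdh5 (VE-cadherin of endothelium), and 790 and 749 cpm for Col1a1 (collagen I of fibroblasts). Blood and cardiac muscle transcripts were present as well, with Hbb-bs (beta globin) at 606 and 625 cpm and Myh6 (alpha myosin heavy chain) at 402 and 384 cpm. In lung pNSCs, Sftpc, Scgb1a1, Cdh5 and Hbb-bs had no counts in either library. Col1a1 was at 1.21 and 1.16 cpm and Ager at 1.74 and 1.63 cpm. The NSC markers ran the other way. Sox2, the transcription factor that maintains neural progenitors, was at 287 and 283 cpm in lung pNSCs and at 14.3 and 14.5 cpm in lung cells. Olig2 was at 1186 and 1140 cpm against no counts, and Sox1, which marks neuroepithelial cells, at 37.6 and 34.6 cpm against no counts. Nes, whose regulatory elements drove the reporter used for sorting, was at 786 and 769 cpm in lung pNSCs and at 289 and 268 cpm in lung cells, so the gene itself was not restricted to the lines.

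**Figure D2:**
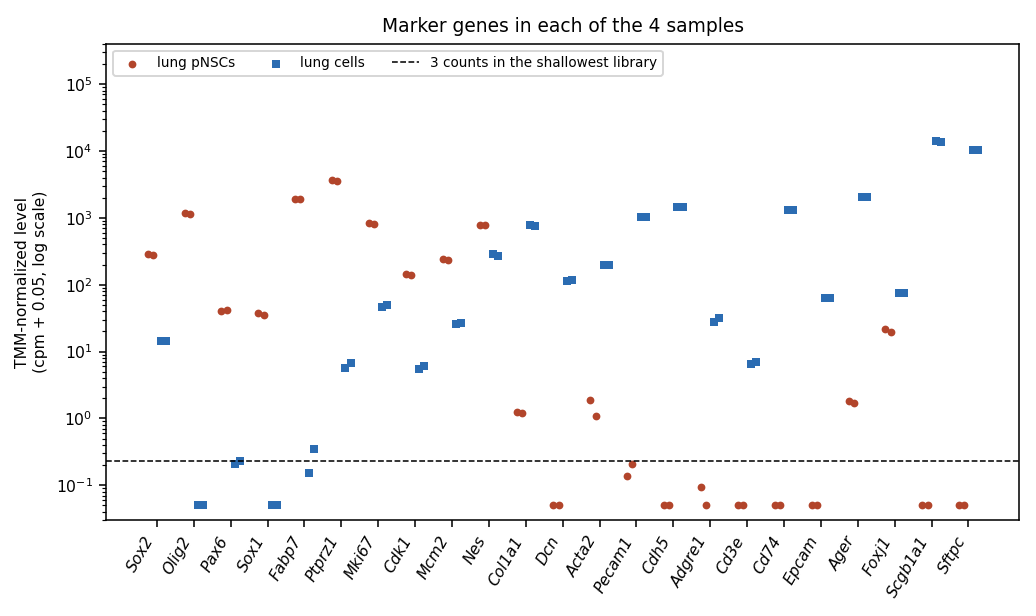
Level of 23 marker genes in each of the 4 samples (cpm with 0.05 added, log scale), with lung pNSCs as red circles, lung cells as blue squares and the limit of 3 counts in the shallowest library as a dashed line. NSC and cell cycle markers on the left are higher in both lung pNSC samples, and lung markers on the right are higher in both lung cell samples. No gene shown has overlapping groups, which was common. Of the 16948 tested genes, 7061 were higher in lung pNSCs without overlap, and 4546 were at least 4-fold lower without overlap.

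Transcription factors of neural stem cells were higher almost throughout. Of 30 such factors tested, 28 were higher in lung pNSCs and none was lower, with a median log2 fold change of 7.09 (6.72 with genes undetected in lung cells set at their lower bound). In lung cells, 15 of the 30 had at most 3 counts in each library and 10 had no counts. Nfib and Nfix, nuclear factor I genes, were the 2 members that were not called. Olig1 and Olig2 are basic helix-loop-helix factors of ventral neural progenitors and the oligodendrocyte lineage, and lie next to each other on chromosome 16 (GRCm38, 91269772 to 91271933 and 91225457 to 91228677, both on the plus strand). Olig1 was at 2293 and 2246 cpm in lung pNSCs and had no counts in lung cells, which makes it at least 13424-fold higher. Olig2 was at least 6878-fold higher. Pax6, a paired-box factor of radial glia, was at 40.8 and 41.2 cpm against 3 counts in each lung cell library, at least 243-fold higher. Sox2 (chromosome 3, 34650405 to 34652461, plus strand) was detected in lung cells, and its log2 fold change of 4.31 (SE 0.05) was among the smaller ones of the list. Sall3, a spalt-type zinc finger factor, had 8934 and 7545 counts in lung pNSCs and none in lung cells, at least 2355-fold higher.

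Genes of radial glia, the neural progenitors whose fibres span the developing brain wall, followed the same direction with exceptions. Of 24 tested, 18 were higher and 2 were lower, with a median log2 fold change of 3.68. Fabp7, the brain fatty acid binding protein, was at 1938 and 1887 cpm in lung pNSCs and at 0.105 and 0.302 cpm in lung cells, a log2 fold change of 13.20 (SE 0.07). Relative to exon length, Fabp7 was the second most abundant transcript of the lung pNSCs at 1530 cpm per kb, after Igfbp2 (insulin-like growth factor binding protein 2) at 1573 cpm per kb. Ptprz1, a receptor tyrosine phosphatase of glial progenitors, was at 3650 and 3584 cpm against 5.54 and 6.71 cpm. Slc1a3, the glial glutamate transporter GLAST, was at 1778 and 1763 cpm against 45.7 and 45.2 cpm. The groups did not overlap for any of these genes, which in this direction also held for 7061 of the 16948 tested genes. Nes itself had a log2 fold change of 1.48 (SE 0.03), smaller than the median of the list. The 2 members that were lower were Prom1, which encodes the surface antigen CD133 (0.357 and 0.579 cpm against 40.9 and 43.9 cpm), and Rgcc (7.99 and 7.69 cpm against 42.5 and 46.4 cpm).

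Targets and receptors of the EGF and FGF pathways, whose ligands were in the medium, went in both directions, among receptors and response genes alike. Of 23 tested, 12 were higher and 5 were lower, with a median log2 fold change of 1.10. Among the receptors, Egfr was at 528 and 528 cpm in lung pNSCs against 57.1 and 55.7 cpm, a log2 fold change of 3.23 (SE 0.04). Fgfr1 was at 251 and 259 cpm against 97.7 and 90.7 cpm, and the neuregulin receptor Erbb4 at 48.4 and 48.8 cpm against 0.836 and 1.51 cpm. Fgfr2 fell by 2.29 on the log2 scale. Fgfr4 had no count and 1 count in the lung pNSC libraries and 84.5 and 77.7 cpm in lung cells, at least 555-fold lower. Erbb3, another neuregulin receptor, was at 0.134 and 0.421 cpm against 77.3 and 76.3 cpm. Among the feedback genes that ERK signalling induces, Dusp6 (an ERK phosphatase) was at 554 and 560 cpm against 180 and 175 cpm and Spry4 (a Sprouty inhibitor) at 282 and 283 cpm against 50.2 and 48.1 cpm. Etv5, an ETS factor downstream of FGF that alveolar type 2 cells also express, had a log2 fold change of 1.87 (SE 0.04). Ier3, another growth factor response gene, was at least 1465-fold lower, and Dusp5, a second ERK phosphatase, fell by 1.53 on the log2 scale.

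Of the 24 neuronal differentiation genes tested, 15 were higher and 4 lower in lung pNSCs. The median log2 fold change was 3.69 (3.00 with bounds). Map2, a dendritic microtubule-associated protein, was at 1536 and 1544 cpm against 15.8 and 15.6 cpm. Early neuronal markers were present at low levels: Tubb3 (class III beta tubulin) at 5.27 and 5.85 cpm and Dcx (doublecortin of migrating neuroblasts) at 5.54 and 5.27 cpm, against 0.157 and 0.302 cpm and 1 count per library in lung cells. Stmn2, a growth cone protein, went the opposite way, with no counts in either lung pNSC library and 50.9 and 48.8 cpm in lung cells, at least 342-fold lower. Gap43 and L1cam, proteins of growing axons, and Celf4 were the other members that were lower.

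Receptors for glutamate and GABA, the main excitatory and inhibitory transmitters of the brain, were mostly higher, with 19 of 29 tested members up and 4 down and a median log2 fold change of 3.77 (3.37 with bounds). The AMPA receptor subunits differed from each other. Gria2 was at 284 and 304 cpm against 0.627 and 0.363 cpm, and Gria4 at 358 and 347 cpm against 4 counts and 0 counts. Gria1 was at 0.313 and 0.158 cpm in lung pNSCs against 28.9 and 30.04 cpm in lung cells, a log2 fold change of -6.89 (SE 0.24). Gria3 was at 34.2 and 37.6 cpm against 25.8 and 24.4 cpm, a log2 fold change of 0.51 that was under the limit for a call. The metabotropic receptor Grm5 was at 469 and 461 cpm against 1 and 2 counts, at least 2753-fold higher. Grin2c, Grin2d and Gabra3 were lower.

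Glial lineage genes were uneven. Of 16 astrocyte genes tested, 10 were higher and 3 were lower. S100b, a calcium binding protein of astrocytes and Schwann cells, was at 58.0 and 54.6 cpm against 1.62 and 1.21 cpm, while Gfap, the intermediate filament of mature astrocytes, reached only 2.41 and 2.58 cpm against 0.627 and 0.363 cpm (log2 fold change 2.29, SE 0.39). Apoe, the main lipid carrier of glia and macrophages, was at 37.3 and 36.2 cpm against 538 and 539 cpm. Gjb6, a gap junction gene, also fell, and Aldh1l1 had a log2 fold change of -1.01, at the limit for a call. Of 14 oligodendrocyte lineage genes tested, 5 were higher and 4 lower. The progenitor genes parted: Cspg4 (the NG2 proteoglycan) was at 136 and 139 cpm against 48.1 and 46.2 cpm, and Pdgfra, which lung fibroblasts also express, was at 7.86 and 5.37 cpm against 441 and 449 cpm. The myelin genes Mbp and Mag were lower, Mag with no counts in lung pNSCs.

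Every gene of the cell cycle lists was higher in lung pNSCs. All 31 S phase genes and all 31 G2 and M phase genes were called, each without overlap between the groups, with median log2 fold changes of 3.03 and 4.06. Absence of overlap was common: 7061 of the 16948 tested genes were higher in both lung pNSC samples than in either lung cell sample. The G2 and M phase genes summed to 5085 and 5058 cpm in lung pNSCs and to 312 and 306 cpm in lung cells. Mki67, the proliferation antigen Ki-67, was at 825 and 821 cpm against 46.6 and 49.3 cpm, a log2 fold change of 4.10 (SE 0.04). Cdk1, the mitotic kinase, was at 143 and 141 cpm against 5.49 and 5.98 cpm. Its partner Ccnb1 (cyclin B1) was at 116 and 115 cpm against 2.98 and 2.90 cpm, and had the largest change of the list at 5.29 (SE 0.09). Top2a, the topoisomerase that untangles chromosomes, was at 841 and 837 cpm against 37.3 and 38.6 cpm. Of the S phase genes, Mcm2 (a subunit of the replicative helicase) was at 240 and 232 cpm against 25.6 and 26.3 cpm, Pcna (the sliding clamp) at 204 and 194 cpm against 42.4 and 43.7 cpm, and Rrm2 (ribonucleotide reductase) at 171 and 167 cpm against 11.4 and 11.1 cpm. Uhrf1, which guides DNA methylation to newly replicated DNA, had a log2 fold change of 4.61 (SE 0.06).

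Because these genes moved together, their promoters are shown. Sequences are from RefSeq on GRCm38.p6 and cover the 250 bases before the annotated start, 5′ to 3′ on the strand of the gene. In late cell cycle genes, promoters often hold the cell cycle genes homology region (CHR, searched as TTTGAA or TTCGAA) together with CCAAT boxes (CCAAT). In S phase genes they often hold E2F sites (searched as TTTGGCGC, TTTCGCGC, TTTCCCGC or TTTGCCGC). Both strands were searched, and matches of 1 motif were allowed to overlap those of another. In Cdk1 (chr10:69352913-69353162, minus strand) and Top2a (chr11:99024190-99024439, minus strand) the capitals mark matches to the CHR. In Ccnb1 (chr13:100786487-100786736, minus strand) they mark CCAAT boxes. In Mcm6, another helicase subunit (chr1:128359706-128359955, minus strand), and Uhrf1 (chr17:56304063-56304312, plus strand) they mark E2F sites, 2 of which overlap in Mcm6.
Cdk1: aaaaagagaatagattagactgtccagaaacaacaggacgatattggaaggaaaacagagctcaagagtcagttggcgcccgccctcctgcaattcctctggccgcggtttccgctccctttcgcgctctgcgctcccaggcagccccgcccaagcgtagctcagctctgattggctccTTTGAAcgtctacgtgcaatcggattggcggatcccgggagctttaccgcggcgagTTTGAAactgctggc
Top2a: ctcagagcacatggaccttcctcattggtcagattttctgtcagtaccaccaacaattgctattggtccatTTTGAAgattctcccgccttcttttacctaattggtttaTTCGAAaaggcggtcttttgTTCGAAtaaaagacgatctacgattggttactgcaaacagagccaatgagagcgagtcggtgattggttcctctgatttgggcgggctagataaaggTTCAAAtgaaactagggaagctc
Ccnb1: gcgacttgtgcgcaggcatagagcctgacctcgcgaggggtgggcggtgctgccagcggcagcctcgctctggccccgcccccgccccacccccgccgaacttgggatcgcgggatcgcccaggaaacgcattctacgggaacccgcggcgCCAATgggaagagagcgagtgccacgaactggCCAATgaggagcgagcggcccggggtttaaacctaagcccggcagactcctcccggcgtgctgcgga
Mcm6: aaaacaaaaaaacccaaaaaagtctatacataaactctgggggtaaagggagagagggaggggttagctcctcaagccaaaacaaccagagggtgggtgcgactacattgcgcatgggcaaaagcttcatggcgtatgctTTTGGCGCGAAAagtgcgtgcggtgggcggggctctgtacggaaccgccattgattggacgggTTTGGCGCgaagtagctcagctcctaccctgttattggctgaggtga
Uhrf1: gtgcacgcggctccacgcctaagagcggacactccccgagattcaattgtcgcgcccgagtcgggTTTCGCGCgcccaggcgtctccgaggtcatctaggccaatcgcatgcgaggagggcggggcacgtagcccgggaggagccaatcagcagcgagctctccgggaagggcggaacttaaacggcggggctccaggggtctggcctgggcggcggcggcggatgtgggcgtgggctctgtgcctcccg
A CHR match was found in 9 of 25 G2 and M phase genes with a promoter among those searched (36%) and in 19.6% of the 27025 genes with one. CCAAT boxes were found in 20 of 25 (80.0%) and in 37.5% of all. An E2F match was found in 6 of 25 S phase genes (24%) and in 2.16% of all. In Cdk1 the CHR match nearest the start began at position -15 and in Top2a at -23, counted back from the start. These matches describe the letters of the windows, and no binding was measured.

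Inhibitors of the cell cycle and targets of p53 did not move as a group. Of 20 tested, 8 were higher and 6 lower. Cdkn1a, which encodes the CDK inhibitor p21, was at 317 and 315 cpm in lung pNSCs against 61.4 and 59.7 cpm. Cdkn2a, the locus of p16 and ARF, was at 40.5 and 37.4 cpm against 0.627 and 1.21 cpm, a log2 fold change of 5.43 (SE 0.16). Cdkn1c, which encodes p57, was at 28.7 and 29.1 cpm in lung cells and had 0 and 3 counts in lung pNSCs, at least 198-fold lower. Cdkn2b (p15) was at 4.24 and 4.00 cpm against 34.6 and 32.7 cpm, although it lies beside Cdkn2a. Cdkn1b (p27) was at 106 and 108 cpm against 110 and 121 cpm and was not called. Among 24 genes of DNA methylation and the Polycomb complexes, 11 were higher and 3 were lower. Dnmt1, the maintenance methyltransferase, was at 372 and 367 cpm against 89.8 and 92.9 cpm, and Ezh2, the Polycomb methyltransferase, at 139 and 142 cpm against 22.2 and 21.9 cpm. Dnmt3a had a log2 fold change of 1.03, at the limit for a call. The 3 lower genes were Ezh1, the paralogue of Ezh2 (10.9 and 10.7 cpm against 103 and 107 cpm), Cbx7 and Pcgf2.

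Cholesterol synthesis and glycolysis were examined next. Of 24 cholesterol synthesis genes, 21 were higher and none lower, with a median log2 fold change of 2.00. Hmgcs1, an enzyme early in the pathway, was at 1151 and 1157 cpm against 116 and 113 cpm, and Sqle (squalene epoxidase) at 403 and 386 cpm against 50.4 and 45.9 cpm. Of 20 glycolysis genes, 10 were higher and 2 lower. Pkm (pyruvate kinase) was at 1898 and 1854 cpm against 280 and 271 cpm, and Ldha (lactate dehydrogenase A) at 566 and 566 cpm against 198 and 198 cpm. Hk2 (hexokinase) was at 23.8 and 21.8 cpm against 23.6 and 21.8 cpm, with overlapping groups. The platelet-type phosphofructokinase Pfkp and the lactate exporter Slc16a3 fell, Pfkp from 100 and 99.7 cpm to 2.14 and 1.63 cpm.

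Members of the Notch pathway, by which neighbouring progenitors keep each other undifferentiated, went in both directions, with 7 of 26 higher and 10 lower. Both shares were not far from those of all tested genes (20.2% higher and 34.9% lower), so the list as a whole did not stand out. Of the ligands, Dll1 was at 81.1 and 75.2 cpm against 33.1 and 34.5 cpm, and the Notch ligand-like gene Dner at 448 and 433 cpm against 2.04 and 2.42 cpm. Of the targets, Hes5, a neural Notch target, was at 39.6 and 38.8 cpm against 4 counts in each lung cell library (log2 fold change 7.41, SE 0.20). Hes1, a target in many tissues, was at 62.3 and 59.3 cpm against 111 and 113 cpm, a log2 fold change of -0.88 that was under the limit. The receptor Notch1 was at 412 and 394 cpm against 293 and 286 cpm and was not called. The lower members were Dll4, Jag2, Notch2, Notch4, Hey1, Hey2, Heyl, Mfng, Maml3 and Numb. Of 17 Hedgehog pathway genes, 7 were higher and 5 lower. The signal transducer Smo was at 161 and 153 cpm against 52.5 and 49.9 cpm. The pathway's receptor and target Ptch1 was at 173 and 165 cpm against 180 and 168 cpm and was not called. The transcriptional effector Gli1, also a target, was at 1.03 and 0.895 cpm against 9.72 and 12 cpm, and the ligand Shh had 2 and 0 counts against 14.4 and 15.8 cpm.

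**Figure D3:**
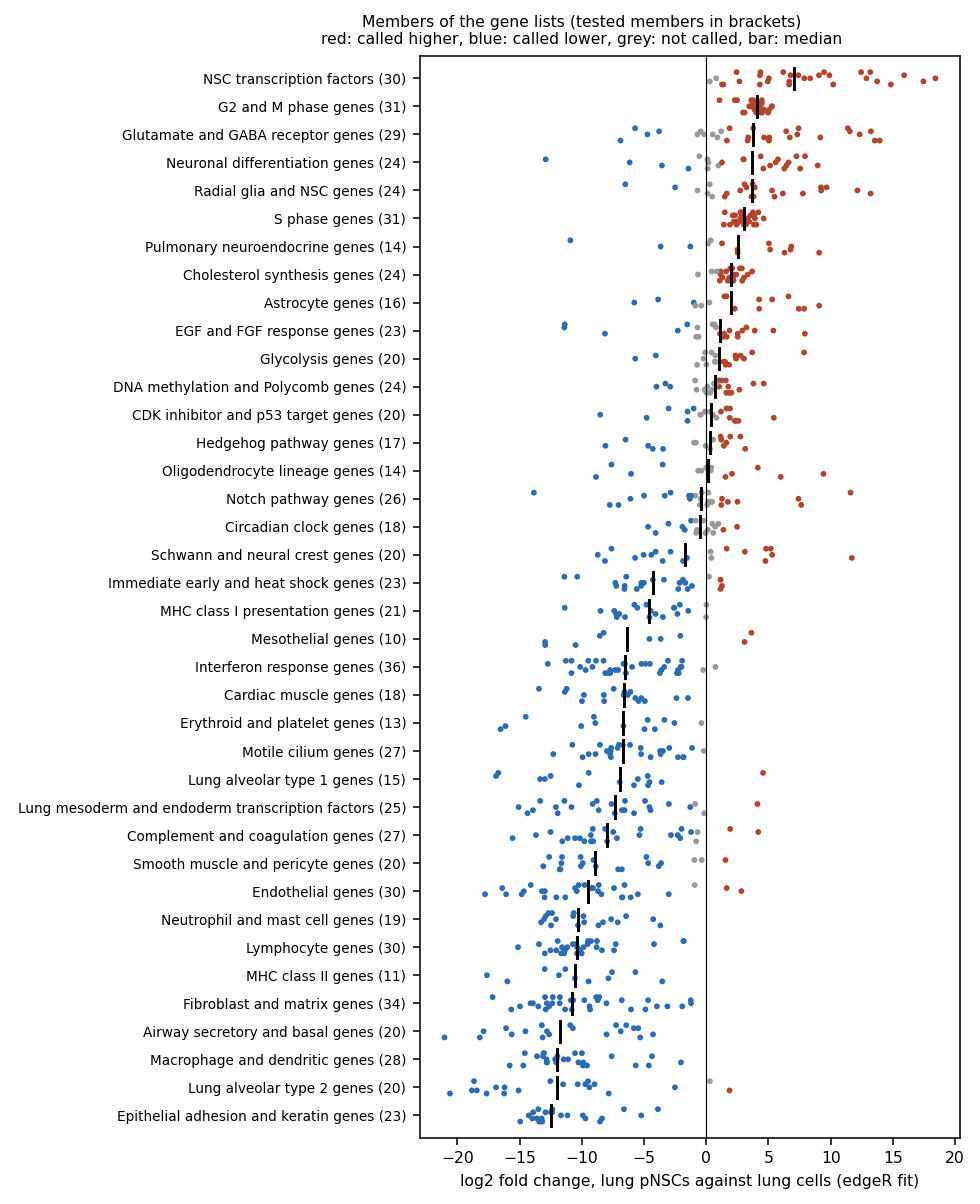
Fitted log2 fold change of lung pNSCs against lung cells for each tested member of 38 gene lists, 1 point per gene, ordered by the median of the list (black bar). The medians of the NSC, neurotransmitter receptor, cell cycle and cholesterol synthesis lists lie to the right of 0, and those of the lung, vascular, stromal and immune lists to the left except for the pulmonary neuroendocrine list (2.52), with single members of some lists on the other side. Fitted values beyond about 10 in size rest mostly on groups with few or no counts.

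Among the genes that were lower, many of those of the lung epithelium had no counts at all in lung pNSCs. Of 20 alveolar type 2 genes, 18 were lower, with a median log2 fold change of -12.02 (-10.86 with genes undetected in lung pNSCs set at their bound). In lung pNSCs, 9 of the 20 had no counts in either library. Sftpc (chromosome 14, 70520949 to 70524081, minus strand) was at least 70688-fold lower. Sftpb and Sftpa1, the other surfactant proteins with values given here, were at 3087 and 3001 cpm and at 2685 and 2723 cpm in lung cells with no counts in lung pNSCs. Slc34a2, the phosphate transporter of these cells, was at 2310 and 2312 cpm against no counts. Abca3, which loads surfactant lipid into lamellar bodies, was at 101 and 108 cpm in lung pNSCs against 602 and 590 cpm. It was also at a mean of 82.2 cpm in brain NSCs and 60.8 cpm in tail pNSCs. Etv5 was higher, as above. Of 15 alveolar type 1 genes, 14 were lower. Ager (receptor for advanced glycation end products) had a log2 fold change of -10.23 (SE 0.06), and Aqp5 (aquaporin 5) had 1 and 0 counts against 322 and 320 cpm. The exception was Igfbp2, at 2931 and 2879 cpm in lung pNSCs against 124 and 121 cpm.

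All 20 airway secretory and basal cell genes were lower, and 15 of them had no counts in lung pNSCs. The list summed to 1.52 and 1.74 cpm in lung pNSCs and to 19622 and 19297 cpm in lung cells. Scgb1a1 (chromosome 19, 9083636 to 9087958, minus strand) alone accounted for most of that sum and was at least 95732-fold lower. Cyp2f2, the cytochrome P450 of club cells, was at 1598 and 1573 cpm in lung cells, and Scgb3a2 at 332 and 331 cpm, both with no counts in lung pNSCs. Krt5, the keratin of basal cells, had only 3 and 7 counts in lung cells. Genes for building motile cilia were lower in 26 of 27 cases, with a median log2 fold change of -6.70 (-5.46 with bounds). Dnah5, an axonemal dynein, was at 55.1 and 55.9 cpm in lung cells against 2 and 1 counts. Foxj1, the master regulator of ciliogenesis, fell less, from 75.4 and 75.0 cpm to 22 and 19.6 cpm. Its mean was 55.6 cpm in brain NSCs and 43.6 cpm in tail pNSCs. All 23 epithelial adhesion and keratin genes were lower, 14 of them with no counts in lung pNSCs. Cdh1 (E-cadherin) was at 388 and 376 cpm against 1 and 0 counts, and Epcam at 62.5 and 64.0 cpm against no counts. The keratins of simple epithelium Krt8 and Krt18 also had no counts in lung pNSCs.

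Vascular and stromal genes were lower as well. Of 30 endothelial genes, 27 were lower and 2 were higher, with a median log2 fold change of -9.52 (-9.18 with bounds). Pecam1 (CD31) was at 1044 and 1031 cpm in lung cells against 2 and 3 counts, at least 7105-fold lower, and Vwf (von Willebrand factor) at 1111 and 1070 cpm against 0.714 and 0.737 cpm. Kdr, the VEGF receptor, was at 734 and 716 cpm against 1.25 and 2.32 cpm. The members that rose were Prox1 (49.6 and 50.3 cpm against 7.42 and 6.65 cpm), a homeobox factor of lymphatic endothelium and also of neural progenitors, and Ednrb (415 and 408 cpm against 131 and 133 cpm), an endothelin receptor that glia also express. All 34 fibroblast and matrix genes were lower, with a median log2 fold change of -10.75 (-9.36 with bounds). Col3a1 (collagen III) was at 1760 and 1739 cpm against 1 and 5 counts, and Dcn (decorin) at 114 and 119 cpm against no counts. Eln (elastin) was at 57.3 and 56.0 cpm in lung pNSCs against 1472 and 1429 cpm, a log2 fold change of -4.68 (SE 0.04).

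Of 20 smooth muscle and pericyte genes, 17 were lower and 1 was higher. Acta2 (smooth muscle actin) was at 1.83 and 1.05 cpm against 200 and 200 cpm, and Myh11 (smooth muscle myosin) at 0.625 and 0.369 cpm against 247 and 233 cpm. The member that rose was Cspg4, which pericytes share with oligodendrocyte progenitors. All 18 cardiac muscle genes were lower. Myh6 fell to 1.03 and 1.69 cpm, and Actc1 (cardiac actin) was at 4.02 and 4.37 cpm against 158 and 155 cpm. Of 10 mesothelial genes, 8 were lower, among them Msln (mesothelin) and Upk3b with no counts in lung pNSCs, and 2 were higher. These were Gpm6a (459 and 440 cpm against 51.7 and 55.0 cpm), a neuronal membrane glycoprotein that the radial glia list also holds, and Cpe (621 and 606 cpm against 50.7 and 48.1 cpm), a neuropeptide-processing enzyme.

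Genes of leukocytes were lower without exception among those tested. These were 28 macrophage and dendritic genes, 30 lymphocyte genes and 19 neutrophil and mast cell genes, with median log2 fold changes of -12.00, -10.36 and -10.31 (-7.66, -6.91 and -6.15 with bounds). In lung pNSCs, 17 of 28, 20 of 30 and 17 of 20 listed genes had no counts in either library. Marco, a scavenger receptor of alveolar macrophages, was at 29 and 30.04 cpm in lung cells, S100a9 of neutrophils at 63.5 and 65.4 cpm and Cd3e of T cells at 6.48 and 6.95 cpm, each with no counts in lung pNSCs. Cd68, a lysosomal protein that is not limited to macrophages, remained at 2.01 and 2.58 cpm against 47.2 and 46.5 cpm. Of 13 erythroid and platelet genes, 12 were lower.

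Antigen presentation and interferon response genes were lower as well. All 11 MHC class II genes fell. Cd74, the invariant chain, was at 1327 and 1306 cpm against no counts, and Ciita, the class II transactivator, at 53.4 and 55.1 cpm against 0.893 and 1.21 cpm. Of 21 MHC class I genes, 19 were lower, with a median log2 fold change of -4.56. Class I molecules are found on nearly all cell types. Of the 21 genes 1, H2-Q6, had at most 3 counts in each lung pNSC library. B2m, the class I light chain, was at 44.7 and 42.6 cpm against 1024 and 1043 cpm, and H2-K1 at 7.32 and 8.11 cpm against 982 and 979 cpm. The H2 genes resemble each other closely, so reads may have been divided between them. Of 36 interferon response genes, 34 were lower, with a median log2 fold change of -6.54 (-6.15 with bounds). Irf7, which amplifies the interferon response, was at 0.402 and 0.211 cpm against 42.7 and 44.2 cpm, and the target Ifit3 had 2 and 1 counts against 48.1 and 41.1 cpm. Of 27 complement and coagulation genes, 23 were lower and 2 higher. C3, the central complement protein, was at 0.268 and 0.316 cpm against 912 and 897 cpm. The higher ones were Masp1, a lectin pathway protease (74.9 and 67.9 cpm against 3.81 and 4.11 cpm), and Plat, the tissue plasminogen activator that neural cells also make (241 and 244 cpm against 63.2 and 65.0 cpm).

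**Figure D4:**
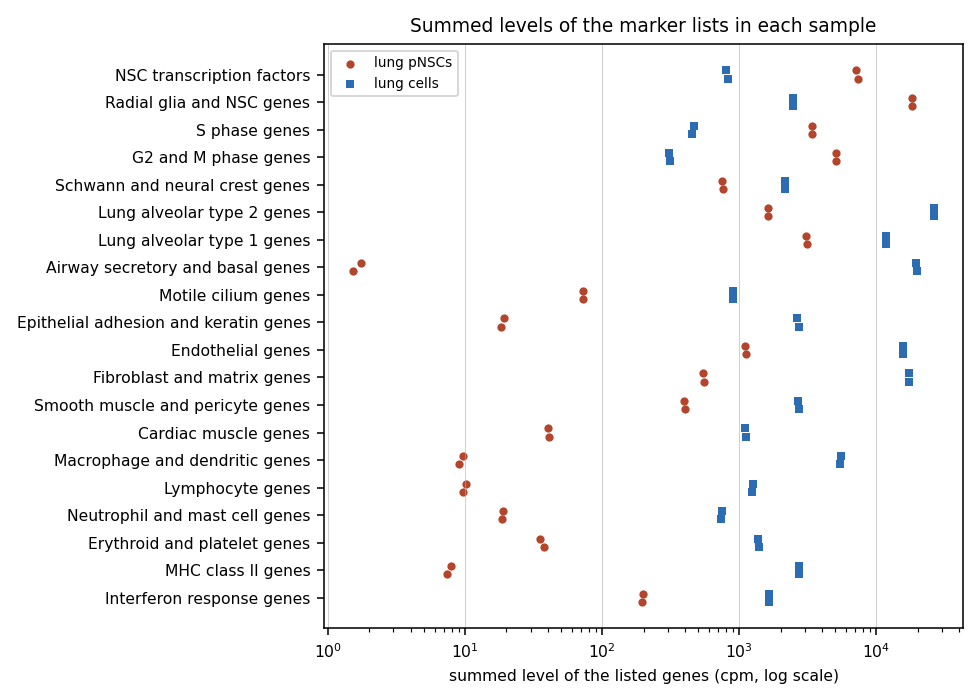
Summed level of the genes of 20 marker lists in each sample (cpm, log scale), with lung pNSCs as red circles and lung cells as blue squares. The 2 samples of a group lie close together, the NSC and cell cycle lists are higher in lung pNSCs, and airway genes show the widest gap, from about 1.52 to 19622 cpm.

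Transcription factors that pattern the lung and its mesenchyme were lower in 22 of 25 cases, with a median log2 fold change of -7.35 (-6.56 with bounds), and 1 was higher. Nkx2-1, which specifies lung epithelium, was at 231 and 221 cpm in lung cells, and Tbx4, which marks lung mesenchyme, at 136 and 138 cpm, both with no counts in lung pNSCs. Foxa2, an endodermal factor, was at 0.446 and 0.105 cpm against 58.9 and 57.1 cpm. Foxf1, a factor of lung mesenchyme and endothelium, kept a low signal of 2.41 and 2.16 cpm against 253 and 253 cpm. The member that rose was Twist1, a mesenchymal and neural crest factor, at 4.33 and 3.58 cpm against 0.261 and 0.181 cpm.

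Genes of Schwann cells and the neural crest, from which the peripheral nervous system of the lung derives, were split. Of 20 tested, 7 were higher and 11 were lower. Sox10, the defining factor of crest-derived glia, had 0 and 2 counts in lung pNSCs and was at 0.836 and 0.363 cpm in lung cells. Ngfr, the neurotrophin receptor p75, was at 0.402 and 0.579 cpm against 1.57 and 1.27 cpm. In contrast, Pax3, a paired-box factor of the dorsal neural tube and the crest (chromosome 1, 78101267 to 78197134, minus strand), was at 22.9 and 20.2 cpm against no counts, at least 127-fold higher. Cdh19, a cadherin of glial precursors, was at 47.1 and 47.3 cpm against 1.25 and 1.33 cpm. Foxd3, an early crest factor, had 22 and 10 counts against 1 and 2, at least 4.46-fold higher.

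Pulmonary neuroendocrine cells are rare, innervated epithelial cells of the airway that share many genes with neurons. Of 14 genes of these cells tested, 9 were higher in lung pNSCs and 3 were lower. The largest rise was in Calca, which encodes calcitonin and the peptide CGRP (chromosome 7, 114631478 to 114636357, minus strand), at 141 and 139 cpm against 4 and 5 counts, a log2 fold change of 9.08 (SE 0.15). Chga (chromogranin A) was at 4.20 and 3.63 cpm against 1 and 0 counts, and Syp (synaptophysin) at 7.72 and 8.11 cpm against 3.14 and 3.45 cpm. Insm1 also belongs to the NSC transcription factors. Ddc, Ccn3 and Pcsk1 were lower.

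Of 23 immediate early and heat shock genes, 19 were lower and 3 higher, with a median log2 fold change of -4.29. Immediate early genes are induced within minutes of a stimulus, which can include tissue dissociation. Fos was at 6.34 and 6.53 cpm in lung pNSCs against 613 and 619 cpm, and Atf3 at 0.536 and 0.474 cpm against 83.7 and 78.8 cpm. Egr1 fell less, from 535 and 538 cpm to 238 and 244 cpm. The part of sample handling in these values was not tested. The genes that rose, Hspa8, Hsp90aa1 and Hsph1, encode chaperones. Of 18 circadian clock genes, 2 were higher, 6 were lower and 10 were not called. The share that was lower was near that of all tested genes (34.9%). Per2 was at 44.0 and 44.2 cpm against 15.9 and 18.2 cpm, and Nr1d1 at 35.8 and 33.4 cpm against 129 and 132 cpm. Of 17 pluripotency genes only 8 were tested, of which 5 were lower, 1 was higher and 2 (Nanog and Tdh) were not called, with a median log2 fold change of -5.35 (-3.99 with bounds). The lower ones were Klf2, Klf4, Klf5, Tfcp2l1 and Tdgf1. Klf2, a factor that endothelium also expresses, was at 4.11 and 2.42 cpm against 313 and 303 cpm, and Klf4 at 4.47 and 5.11 cpm against 181 and 175 cpm. Pou5f1 and Zfp42 had no counts in any of the 4 libraries. The member that rose was Esrrb, a nuclear receptor of naive stem cells, at 10.0 and 9.48 cpm against 0.105 and 0.604 cpm. Among sex-linked genes, Xist was present in all 4 samples (1713 and 1772 cpm against 638 and 679 cpm), and the Y-linked genes Ddx3y, Eif2s3y and Kdm5d had no counts in any of them.

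A few abundant genes hardly differed. By the rule used, these included Sptan1 (spectrin), Gnai2 (a G protein subunit), Dag1 (dystroglycan) and Nisch, at 623 to 1226 cpm in both groups, with log2 fold changes between -0.02 and 0.03 and adjusted p-values from 0.39 to 0.90 in edgeR's test. Sptan1 for example was at 1226 and 1208 cpm in lung pNSCs and 1202 and 1188 cpm in lung cells, without overlap, and was not called.

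The comparison of tail pNSCs with tail cells shares no sample with the lung comparison. It shows where the difference between lung pNSCs and lung cells was unlike that between tail pNSCs and tail cells. In the study's design the tail pNSCs came from postnatal mice and the lung pNSCs from adults, and the labels put postnatal tail donors at around day 1 to 5, so tissue and donor age cannot be told apart here. The tail libraries also held Y-linked reads, with Ddx3y at 51.6 and 48.1 cpm in tail cells and at 8.78 and 8.36 cpm in tail pNSCs, against no counts in the 4 lung libraries. The part of donor sex in the differences was not tested. The difference between the lung effect and the tail effect was called for 5199 genes (30.7%), 2755 in the higher direction (16.3%) and 2444 in the lower (14.4%). A further limit is that 1334 tested genes had no counts in both the lung pNSCs and the tail pNSCs. For these the difference could not be fitted, and none of them is among those called. All 31 G2 and M phase genes and 30 of 31 S phase genes had a called difference in the higher direction. The median log2 fold changes were 4.06 in lung and 1.29 in tail for the G2 and M phase genes, and 3.03 and 1.06 for the S phase genes. For Mki67 the levels in the pNSCs were 823 cpm (lung, SD 2.44, n = 2) and 925 cpm (tail). In the tissue cells they were 47.9 cpm (lung, SD 1.96, n = 2) and 481 cpm (tail). Lung and tail therefore differed more in the tissue cells than in the pNSCs. The tissue levels are averages over mixed cells, not over the sorted cells that the lines were grown from. Of the 21 MHC class I genes, 14 had a called difference in the lower direction and none in the higher. B2m was at 43.7 cpm in lung pNSCs and 56.6 cpm in tail pNSCs, but at 1034 cpm in lung cells and 118 cpm in tail cells.

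NSC transcription factors had a median log2 fold change of 7.09 in lung and 2.93 in tail, with 16 differences called higher and 2 lower. Sox2 rose in both, by 4.31 in lung and 5.27 in tail, and reached 285 cpm in lung pNSCs, 264 cpm in tail pNSCs and 315 cpm in brain NSCs. The fibroblast and matrix genes had nearly equal medians, -10.75 in lung and -10.82 in tail, with 13 differences called higher and 7 lower. Motile cilium genes, which are active in the airway, had medians of -6.70 in lung and 0.00 in tail, with 20 called differences, all in the lower direction. A fitted value of 0.00 is given to genes without counts in any tail library, so this median does not show an unchanged programme. In tail, 5 of the 27 genes were called higher and 6 lower. Schwann and neural crest genes had medians of -1.71 in lung and -6.77 in tail, with 14 differences called higher and 3 lower. Among single genes S100b went in opposite directions, with a log2 fold change of 5.29 in lung and -2.99 in tail (difference 8.28). Tail pNSCs had 5.07 cpm of S100b and lung pNSCs 56.3 cpm. Foxj1 also differed in sign, with log2 fold changes of -1.85 in lung and 4.88 in tail, and 20.8 cpm in lung pNSCs and 43.6 cpm in tail pNSCs.

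**Figure D5:**
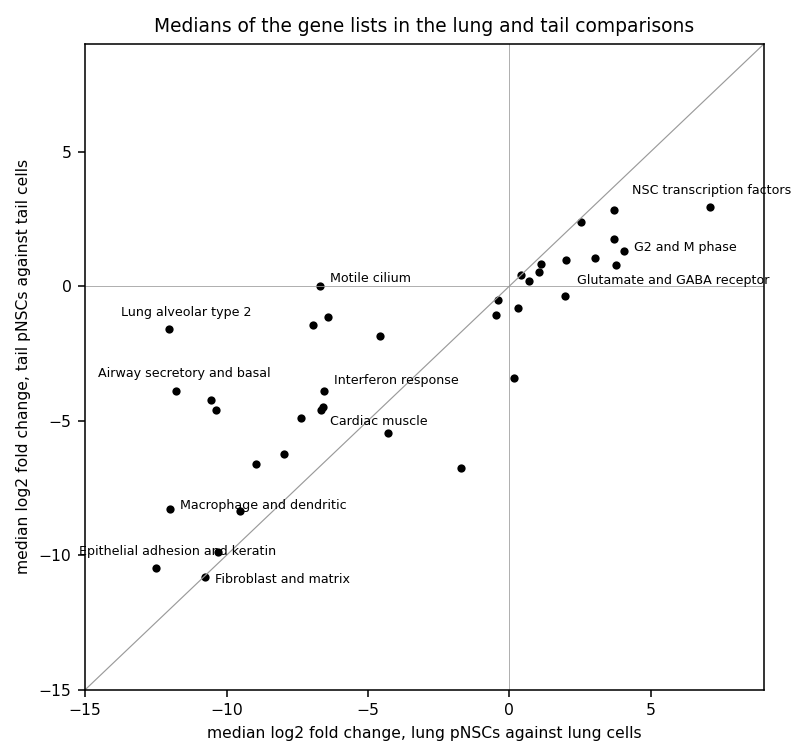
Median fitted log2 fold change of each of the 38 gene lists in the lung comparison (horizontal axis) and in the tail comparison (vertical axis), 1 point per list, with equal medians on the grey diagonal. Fibroblast and matrix genes lie near the diagonal, alveolar, airway and cilium genes lie far to its left, and the NSC and cell cycle lists lie below it on the right.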

How the data were processed

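Per the labels, poly-A selected RNA was sequenced single-end, and the submitters' processing notes name HISAT2, Cufflinks, HTSeq and the build GRCm38. The authors deposited 1 table of raw read counts per gene, not normalized. The annotation release and the strand setting are not given in the sources used here, so overlapping genes on opposite strands may share reads. Samples were grouped by title, and every column with counts was matched to a sample.

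Counts were tested with edgeR 4.0.16 (TMM factors, filterByExpr with a minimum count of 10 and total of 15, glmQLFit and glmQLFTest) in R 4.3.3, in 1 fit of 10 samples in 5 groups. Depth ranged from 16700710 to 21402778 counts, and 3 counts stood for the limit of detection, which covers counting error only. A lower bound on a fold ("at least") was computed against that limit where a group had at most 3 counts in each library. An adjusted p of 0 means that it was too small to be represented, so SEs are given. The lung and tail effects were compared by a contrast in the same fit. The alternatives were DESeq2 1.42.0, other scalings, filters, a replicate block and leaving out samples. On simulated data, 199 of 200 genes changed 3-fold were recovered in the lung comparison with 1 false call among 16223 genes. The simulation gave all groups 1 shared mean per gene and 1 common dispersion, and changed only those 200 genes. It therefore gives no error rate for data in which most genes differ, as here, and does not test the scaling.

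The members and the gene lists were chosen with earlier results of these data known. Genes named were the first 4 of each list, members that moved against their list, the 10 largest rises and falls above 100 cpm, the 5 largest differences from tail in each direction above 50 cpm, and the 5 most abundant genes with little change. Others named as the remaining members of a count were chosen after their values were seen. Promoters of a single chromosome were left out of the RefSeq table before the motif search, and all promoter counts are of the rest. A search needed a promoter there for at least 80% of a list. Each cell cycle list met this with 25 of 31 genes (80.6%). The interferon response list did not, with 25 of 36 genes (69.4%). Some genes that the rule names are not reported here. Exon lengths and positions are from GENCODE on GRCm38.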

Additional observations from a re-analysis of the deposited data

Results flagged for a closer look

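The lung and the tail comparison differed, by the contrast of both effects in edgeR's fit, for 5199 genes. The 5 largest differences in each direction, among genes above 50 cpm, were mostly in genes that 1 of the tissues expressed at a high level. On the side where the lung effect was higher were Col9a1 (difference 20.68, SE 0.42), Krt27 (19.65, SE 2.94), Col2a1 (19.61, SE 0.65), Acan (18.24, SE 0.70) and Krtap7-1 (18.22, SE 1.400), all on the log2 scale. Col2a1, Col9a1 and Acan encode proteins of cartilage matrix, and Krt27 and Krtap7-1 proteins of hair. In tail cells Col2a1 was at 42925 and 41915 cpm and Krt27 at 646 and 625 cpm. In lung pNSCs, by contrast, Col9a1 was at 3.04 and 2.11 cpm, Acan at 0.759 and 0.527 cpm, Krtap7-1 at 0.313 and 0.211 cpm, and Col2a1 had 3 and 8 counts. Krt27 was at or under 3 counts in every lung pNSC and lung cell library, so that its difference rests on the tail samples.

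On the side where the lung effect was lower were Sftpc (-17.97, SE 1.34), Hc (-14.82, SE 0.94), Cxcl15 (-13.09, SE 2.97), Aqp5 (-12.44, SE 1.988) and Lrp2 (-12.39, SE 0.17). Sftpc, Cxcl15 and Aqp5 are lung epithelial genes that tail cells had at less than 1 cpm. Lrp2, which encodes the endocytic receptor megalin, changed in opposite directions: it was at 9.33 and 10.3 cpm in lung pNSCs against 156 and 156 cpm in lung cells, and at 77.6 and 68.5 cpm in tail pNSCs against 1 and 6 counts in tail cells. Fitted differences of genes at or near 0 counts depend on the prior count and are not bounds.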

How the results depend on the processing

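Of the calls for lung pNSCs against lung cells (9327 in all, 3416 higher and 5911 lower), DESeq2 gave 9008, RLE factors 9233, upper-quartile factors 9452, library totals alone 9459, no filter 9957, a fit of the 4 samples alone 8962, and edgeR's test against the fold limit 8601. With a mean count of at least 100, fewer genes were tested, and 5803 were called, 3391 of them lower. Without a limit on the fold, 14582 genes were called, 6588 of them higher, and the difference from tail was called for 10445 genes (5657 higher, 4788 lower). Under quantile normalization 3420 genes were at least 4-fold higher without overlap, against 1673, and 3210 lower, against 4546. Because that scaling gives every library the same distribution, it cannot decide whether the excess of lower genes holds. Leaving out 1 sample at a time gave 9251 to 9583 calls (3374 to 3514 higher, 5737 to 6120 lower), and 4924 to 5124 for the difference. The lone sample of a group was then assumed to vary like the others. No value changed direction in a call. The replicate numbers are shared between groups. Deviations of same-numbered lung pNSC and lung samples correlated at 0.000837 (range over all pairs of groups -0.00801 to 0.0312). Replicates differed little beyond counting error, so this correlation cannot show whether same-numbered samples were paired. With the replicate block 9281 genes were called (3400 higher, 5881 lower), and 5114 for the difference. For single genes, 24 values fell below and 20 came above the threshold under some alternative. Among them were Dnmt3a, Aldh1l1, Hes1 and Ngfr. Of the counts of called members in the gene lists, 23 moved by more than 1.5 times, 14 of them with a mean count of at least 100 and 9 without a limit on the fold, and 1417 did not. Depth limits genes under 3 counts.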

Other observations

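Gene families, some members of which are also in the lists, are described here after their values were seen. Over all tested genes 20.2% were higher and 34.9% lower in lung pNSCs, and the counts below are read against these shares. Of 44 collagen genes tested, 34 were lower in lung pNSCs and 6 were higher, the higher ones being Col9a1, Col9a2, Col9a3, Col11a1, Col19a1 and Col28a1. Of 17 Sox genes 11 were higher and 5 lower, the lower ones being Sox7, Sox10, Sox13, Sox17 and Sox18. Of 36 Hox genes 12 were lower, a share near that of all tested genes, 22 were not called and 2 (Hoxa10 and Hoxd8) were higher. Many had few or no counts: of 39 Hox genes in the file, 26 had none in lung pNSCs and 14 none in lung cells. None of 18 claudin genes was higher and 12 were lower. Of 35 interleukin receptor genes 31 were lower, and of 28 chemokine genes 25 were lower with Ccl25 the only one higher. Kinesin genes were higher in 19 of 35 cases and lower in 8. Potassium channel genes went both ways, with 26 of 82 higher and 40 lower, and so did protocadherin genes, with 22 of 59 higher and 13 lower.

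A few genes were detected in lung pNSCs and had at most 3 counts in each brain NSC and tail pNSC library. These were chosen after their values were seen, and with 2 samples a group they describe these lines only. Pax3 was at 22.9 and 20.2 cpm in lung pNSCs and had no counts in brain NSCs and tail pNSCs. Lbx1, a homeobox factor of the dorsal spinal cord, was at 3.13 and 3.84 cpm. Shox2, a homeobox factor of limb and heart, was at 5.72 and 3.58 cpm. Tbx3 (2.95 and 1.90 cpm) and Foxf1 (2.41 and 2.16 cpm), which belong to the lung transcription factors, and Enpep (3.48 and 2.21 cpm), an aminopeptidase, were far higher in lung cells, at 233 and 235, 253 and 253, and 195 and 201 cpm.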
